A study of Mus musculus with 6 samples.

Results

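Hypoxia targets and mitophagy receptors were followed through the islets of mice with the selenocysteine transfer RNA gene Trsp intact or deleted by Cre. The set held 10 genes, Bnip3, Bnip3l, Pfkfb3, Pdk1, Egln3, Egln1, Vegfa, Ankrd37, Hif1a and Slc2a1, chosen by name and found on the array through the RefSeq accession of each probe. All 10 genes had probes, 18 in number, and 9 genes passed the filter on dim probes and were tested among 19020 genes. Egln3 was not well above background on any array and Egln1 entered only through 1 group, Trsp-RIPKO.

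The islets came from 16-week-old mice of the outbred ICR background, labelled male, and total RNA was hybridised to 6 one-colour Agilent arrays, 2 for each group. Every group carried the floxed Trsp gene on both alleles. In TrspFF (TrspFlox/Flox) there was no Cre, in Trsp-RIPKO (TrspFlox/Flox::RIP-Cre) Cre was driven by the rat insulin promoter, which is also known to be active in the hypothalamus, and in Trsp-Ins1KO (TrspFlox/Flox::Ins1-Cre) by the Ins1 promoter of beta cells. Islets with Cre and an intact Trsp gene were not analysed here, so that Cre and loss of Trsp cannot be told apart. The labels do not say whether separate animals gave the arrays of a group, so each p-value reflects the spread of these samples alone, which may be technical. In whole islets, fewer cells of a type and less RNA per cell cannot be told apart.

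In cells with enough oxygen, the prolyl hydroxylases encoded by Egln1, Egln2 and Egln3 mark the alpha subunits of the hypoxia-inducible factor (HIF) for destruction. When oxygen falls, the alpha subunit is spared, pairs with Arnt and binds the short core ACGTG or GCGTG in target genes, which raises glucose uptake and glycolysis, keeps pyruvate out of mitochondria and raises the endothelial growth factor Vegfa. HIF activity is set mainly at the protein level, so Hif1a mRNA is not a reading of it. Bnip3 and Bnip3l encode receptors of the outer mitochondrial membrane that recruit the autophagy machinery to mitochondria, and beta cells depend on mitochondrial oxidation of glucose to release insulin.

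Several facts of the 6 arrays touch every result. The 75th percentile of processed intensity lay at 225.1 to 254.8 in TrspFF, 205.9 to 217.3 in Trsp-RIPKO and 114 to 125 in Trsp-Ins1KO, and 57.5% to 61.0% of probes were well above background in the first 2 groups against 51.4% to 52.2% in Trsp-Ins1KO. Both Trsp-RIPKO arrays lay alone on slide 2 and were marked for evaluation by the scanner software, so for them the slide cannot be told apart from the group, whereas TrspFF and Trsp-Ins1KO shared slide 1. The labels give males throughout. Yet Xist, the RNA of the inactive X chromosome, was well above background on the TrspFF (-0.60 and -0.36) and Trsp-RIPKO arrays (1.04 and 1.32). Xist was not well above background on the Trsp-Ins1KO arrays (-5.83 and -5.64). The Y-linked Ddx3y and Eif2s3y were above background on all 6 arrays but lowest on those of Trsp-RIPKO. Ddx3y read -0.54 and -0.46 there, against 0.92 and 0.73 for TrspFF and 0.71 and 0.48 for Trsp-Ins1KO. Eif2s3y read 0.36 and 0.30 there, against 1.483 and 1.365 for TrspFF and 1.07 and 0.98 for Trsp-Ins1KO. Xist thus differed between all groups, so the sex of the islets cannot be told apart from the group. The islet hormone probes Ins1, Ins2, Gcg and Sst were bright on all 6 arrays, and no probe was named for Trsp itself, so the deleted gene does not check the labels. Every direction below follows the scanner files. In the authors' deposited table the columns named TrspFF hold the values of the Trsp-Ins1KO scanner files and the reverse, and under those names each difference between TrspFF and Trsp-Ins1KO has the opposite sign. The sources used here do not settle which names are right, and where the names end a call of a member the value under them is given.

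Levels are log2 intensities relative to the 75th percentile of their own array, so that 0 is that percentile and 1 unit is a factor of 2. A gene was called where the limma p-value, Benjamini-Hochberg adjusted over all 19020 genes, was under 0.05. Against TrspFF, 5 of the 9 tested members were called in Trsp-RIPKO, and 35.3% of all genes were called in that comparison. Bnip3, Vegfa by its brighter probe, Ankrd37 and Hif1a were lower (15.0% of all genes were called lower) and Pfkfb3 was higher (20.3% of all genes were called higher). In Trsp-Ins1KO against TrspFF, 6 of 9 were called, beside 46.0% of all genes. Pfkfb3, Pdk1 and Slc2a1 were higher (23.3% of all genes) and Vegfa, Ankrd37 and Hif1a were lower (22.6% of all genes). Trsp-Ins1KO and Trsp-RIPKO differed in 2 of 9, Bnip3 and Slc2a1, both higher in Trsp-Ins1KO. Over all genes 38.9% were called in that comparison, 18.1% higher and 20.8% lower. The median difference of the 9 genes was -0.11 in Trsp-RIPKO and -0.016 in Trsp-Ins1KO, against 0.027 and -0.0099 for all genes. The median size of the difference, regardless of sign, was 0.47 and 0.51, against 0.27 and 0.33 for all genes. In Trsp-Ins1KO against Trsp-RIPKO it was smaller than for all genes, at 0.10 against 0.29. The comparisons of both knockouts with TrspFF share the TrspFF arrays.

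The fit was repeated with 1 array left out at a time, and a call described as lost without either array of a group is lost in each of those fits. Each such fit leaves 1 group with 1 array, whose spread is assumed to be that of the other groups, so a call that held has no replicate check of its own in that group. In Trsp-RIPKO against TrspFF, 0 members were called without TrspFF replicate 1 by limma (5 at an unadjusted p under 0.05), where 970 genes in all were called, against 6717 with every array. There were 2 without TrspFF replicate 2, 3 without Trsp-RIPKO replicate 1 and 2 without Trsp-RIPKO replicate 2. In Trsp-Ins1KO against TrspFF, 3 were called without either TrspFF array (3770 and 4281 genes in all, against 8745). Trsp-Ins1KO against Trsp-RIPKO gave 2 in each such fit and 7 with normexp background correction, a model of the local background that acts mostly on dim probes. The plot of levels by array shows the 10 genes side by side.

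**Figure D1:**
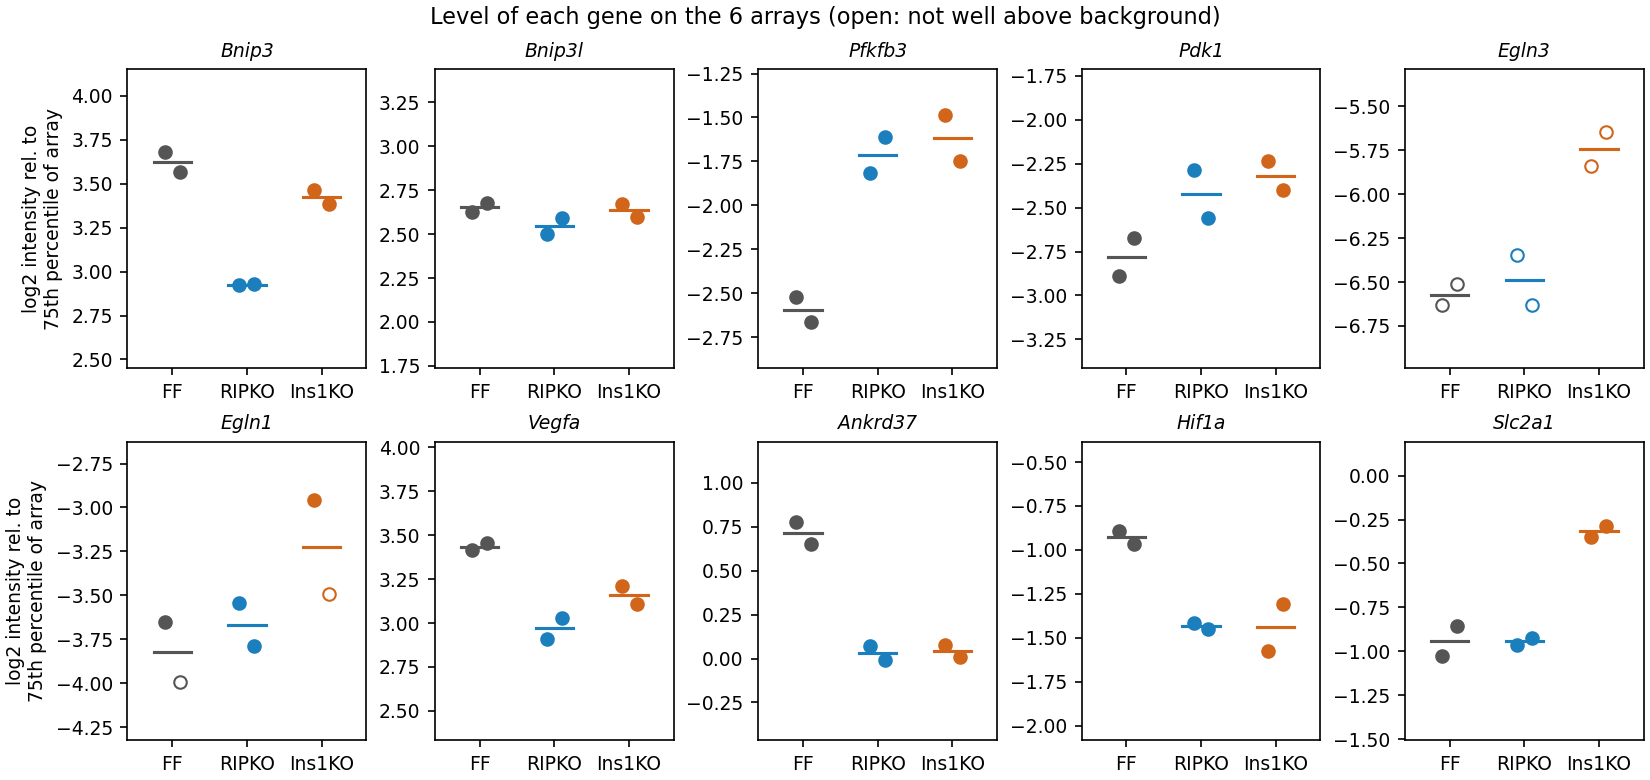
Level of each of the 10 genes (log2 intensity relative to the 75th percentile of the array, y axis, each panel spanning the same range) on the arrays of TrspFF, Trsp-RIPKO and Trsp-Ins1KO. Points are arrays, lines are group means, and open points are not well above background; Bnip3 is lowest on the Trsp-RIPKO arrays (2.92 and 2.93), Slc2a1 is highest on the Trsp-Ins1KO arrays (-0.35 and -0.28), and Ankrd37 and Hif1a are lower on all 4 knockout arrays than on both TrspFF arrays.

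Hif1a encodes the oxygen-labile alpha subunit. Hif1a measured -0.89 and -0.97 on TrspFF arrays, -1.41 and -1.45 on Trsp-RIPKO arrays, and -1.57 and -1.31 on Trsp-Ins1KO arrays. Both TrspFF arrays were above all 4 knockout arrays, and the knockout groups overlapped. Hif1a fell by 0.50 in Trsp-RIPKO (SE 0.11, adjusted p = 0.0232) and by 0.51 in Trsp-Ins1KO (SE 0.11, adjusted p = 0.0157), which is 0.706 and 0.701 times the TrspFF level. The knockouts did not differ from each other by more than the error (-0.0087, 95% confidence interval -0.28 to 0.26, adjusted p = 0.955). The call in Trsp-RIPKO was lost without either TrspFF array and without either Trsp-RIPKO array (highest adjusted p = 0.123), and that in Trsp-Ins1KO without either TrspFF array (0.0883). With normexp background correction the difference was -0.16 in Trsp-RIPKO (adjusted p = 0.0971) and 0.0026 in Trsp-Ins1KO (0.979), so the fall of Hif1a depends on the background step. By the names in the authors' deposited table the Hif1a difference was -0.014 in Trsp-RIPKO (adjusted p = 0.928) and 0.52 in Trsp-Ins1KO (0.015).

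Egln1 encodes the main oxygen-sensing prolyl hydroxylase and was dim. Egln1 measured -3.65 and -3.99 on TrspFF arrays, -3.54 and -3.79 on Trsp-RIPKO arrays, and -2.96 and -3.49 on Trsp-Ins1KO arrays, and 1 TrspFF array and 1 Trsp-Ins1KO array were not well above background. The TrspFF and Trsp-RIPKO arrays overlapped, and the Trsp-Ins1KO arrays were above both TrspFF arrays but further apart from each other than the arrays of the other groups. The difference from TrspFF was 0.60 in Trsp-Ins1KO (95% confidence interval 0.033 to 1.16, adjusted p = 0.0789) and 0.15 in Trsp-RIPKO (-0.41 to 0.72, adjusted p = 0.606), neither past the threshold. Without Trsp-Ins1KO replicate 2 the former passed, as it did with normexp background correction (0.62, adjusted p = 1.01e-06). With normexp Egln1 was also called higher in Trsp-Ins1KO than in Trsp-RIPKO (0.44, adjusted p = 8.43e-05). Egln3, a prolyl hydroxylase that is itself a HIF target, had 2 probes at -6.73 to -5.64, well above background on none of the 6 arrays, so no fold is given for it.

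Ankrd37 encodes an ankyrin-repeat protein known as a HIF target. Ankrd37 measured 0.78 and 0.65 on TrspFF arrays, 0.07 and -0.01 on Trsp-RIPKO arrays, and 0.08 and 0.01 on Trsp-Ins1KO arrays. The 4 knockout arrays lay close together and under both TrspFF arrays. Ankrd37 fell by 0.68 in Trsp-RIPKO (SE 0.080, adjusted p = 0.00746) and by 0.67 in Trsp-Ins1KO (SE 0.080, adjusted p = 0.00386), to 0.624 and 0.627 times the TrspFF level. The difference between the knockouts was 0.0084 (95% confidence interval -0.20 to 0.21, adjusted p = 0.942), or 0.18 with normexp background correction (0.0475). The call in Trsp-Ins1KO held without any 1 array (highest adjusted p = 0.0341), and that in Trsp-RIPKO was lost without TrspFF replicate 1 (0.0554). By the names in the authors' deposited table the Ankrd37 difference was -0.031 in Trsp-RIPKO (adjusted p = 0.776) and 0.68 in Trsp-Ins1KO (0.00377), and 0.71 between the lines (0.00713).

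Pfkfb3 encodes the enzyme that makes fructose 2,6-bisphosphate, the activator of glycolysis, and went the other way. Pfkfb3 measured -2.52 and -2.67 on TrspFF arrays, -1.81 and -1.61 on Trsp-RIPKO arrays, and -1.49 and -1.75 on Trsp-Ins1KO arrays. All 4 knockout arrays were above both TrspFF arrays, and the knockout groups overlapped. The rise was 0.88 in Trsp-RIPKO (SE 0.13, adjusted p = 0.0107, 1.84-fold) and 0.98 in Trsp-Ins1KO (SE 0.13, adjusted p = 0.0048, 1.97-fold). Trsp-Ins1KO was above Trsp-RIPKO by 0.097 (95% confidence interval -0.23 to 0.42, adjusted p = 0.576), or by 0.23 with normexp background correction (0.0141). The call in Trsp-Ins1KO held without any 1 array (highest adjusted p = 0.0345), and that in Trsp-RIPKO was lost without TrspFF replicate 1, TrspFF replicate 2 or Trsp-RIPKO replicate 2 (highest 0.0629). By the names in the authors' deposited table the Pfkfb3 difference was -0.12 in Trsp-RIPKO (adjusted p = 0.495) and -0.97 in Trsp-Ins1KO (0.00495), and -0.85 between the lines (0.0114). A second Pfkfb3 probe was not well above background on any array.

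Ankrd37 fell and Pfkfb3 rose in both Cre lines against the same TrspFF arrays, and the promoter of each holds the HIF core near the annotated start. The stretches below are from RefSeq on GRCm38.p6, both on the minus strand and written 5′ to 3′ along the gene, with capitals marking ACGTG. The Ankrd37 stretch is chr8:45999851-45999880, with the match beginning 6 bases before the start, and the Pfkfb3 stretch is chr2:11553972-11554001, with the match beginning 60 bases before it.
Ankrd37: ggctgcacatgtcagtgtttgggtACGTGa
Pfkfb3: ctccgcgccgtgACGTGccaagctgtgacc
The same core thus stands before a gene that fell and a gene that rose, and the match describes the letters only.

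Slc2a1 encodes the basal glucose transporter GLUT1 and was the member that separated Trsp-Ins1KO, by the scanner files, from both other groups. Slc2a1 measured -1.03 and -0.85 on TrspFF arrays, -0.97 and -0.92 on Trsp-RIPKO arrays, and -0.35 and -0.28 on Trsp-Ins1KO arrays. The Trsp-RIPKO arrays lay between the TrspFF arrays, and both Trsp-Ins1KO arrays were above the other 4. Slc2a1 rose by 0.62 in Trsp-Ins1KO against TrspFF (SE 0.086, adjusted p = 0.00542, 1.54-fold) and by 0.63 against Trsp-RIPKO (SE 0.086, adjusted p = 0.00612, 1.54-fold). Both calls held without any 1 array (highest adjusted p = 0.0385 and 0.0374). In Trsp-RIPKO against TrspFF the difference was -0.0036 (95% confidence interval -0.22 to 0.22, adjusted p = 0.978). By the names in the authors' deposited table Slc2a1 instead fell in both knockouts against TrspFF, by 0.65 in Trsp-RIPKO (adjusted p = 0.00568) and by 0.62 in Trsp-Ins1KO (0.00555), and the difference between the lines was 0.031 (0.799).

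Pdk1 encodes a kinase that switches off pyruvate dehydrogenase and so keeps pyruvate out of the mitochondrial cycle. Pdk1 measured -2.89 and -2.67 on TrspFF arrays, -2.29 and -2.56 on Trsp-RIPKO arrays, and -2.23 and -2.40 on Trsp-Ins1KO arrays. All knockout arrays were above both TrspFF arrays, by little in the case of Trsp-RIPKO replicate 2. The difference was 0.36 in Trsp-RIPKO (95% confidence interval 0.015 to 0.70, adjusted p = 0.0929) and a rise of 0.46 in Trsp-Ins1KO (SE 0.14, adjusted p = 0.0415, 1.38-fold). The knockouts differed by 0.10 (-0.24 to 0.45, adjusted p = 0.568), or by 0.41 with normexp background correction (0.000194). The call was lost whichever TrspFF or Trsp-Ins1KO array was left out (highest adjusted p = 0.182) and under several other settings, quantile normalization (0.0841) and median scaling (0.0691) among them.

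Vegfa encodes the secreted growth factor through which beta cells maintain the islet capillaries, and its 2 probes gave opposite answers. The brighter probe, A_52_P638895 (designed on NM_001025250), was at 3.41 and 3.46 on TrspFF arrays, 2.91 and 3.03 on Trsp-RIPKO arrays and 3.21 and 3.11 on Trsp-Ins1KO arrays. By that probe Vegfa fell by 0.47 in Trsp-RIPKO (SE 0.080, adjusted p = 0.0147) and by 0.28 in Trsp-Ins1KO (SE 0.080, adjusted p = 0.0415), and the groups did not overlap. The former call was lost whichever TrspFF or Trsp-RIPKO array was left out (highest adjusted p = 0.0862), and the latter in each of the 6 fits that left out an array (0.179). By the names in the authors' deposited table the same probe was at -0.21 in Trsp-RIPKO (adjusted p = 0.0954) and 0.28 in Trsp-Ins1KO (0.0415), and 0.49 between the lines (0.0136).

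The other Vegfa probe, A_52_P249424 (designed on NM_001025257), was at 2.69 and 2.67 on TrspFF arrays, 2.81 and 3.0 on Trsp-RIPKO arrays and 3.41 and 3.47 on Trsp-Ins1KO arrays. In a fit over all probes it was higher by 0.23 in Trsp-RIPKO (adjusted p = 0.104), rose by 0.76 in Trsp-Ins1KO against TrspFF (adjusted p = 0.00403) and by 0.53 against Trsp-RIPKO (adjusted p = 0.011). Taken within each array, the second probe minus the first was -0.73 and -0.79 on TrspFF arrays, -0.10 and -0.03 on Trsp-RIPKO arrays and 0.20 and 0.36 on Trsp-Ins1KO arrays. This within-array difference needs no scaling between arrays and did not overlap between any 2 groups. The accessions are different Vegfa transcripts, and the mean over both probes was called in neither knockout against TrspFF (-0.12, adjusted p = 0.293, and 0.24, adjusted p = 0.057). No direction for Vegfa as a gene can therefore be given from these arrays.

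Bnip3 encodes a mitophagy receptor related to the BCL2 family and a classical HIF target, and was the member that separated Trsp-RIPKO from both other groups. Bnip3 measured 3.68 and 3.57 on TrspFF arrays, 2.92 and 2.93 on Trsp-RIPKO arrays, and 3.47 and 3.38 on Trsp-Ins1KO arrays. The Trsp-RIPKO arrays were the lowest, the Trsp-Ins1KO arrays lay between, and no groups overlapped. Bnip3 fell by 0.70 in Trsp-RIPKO against TrspFF (SE 0.076, adjusted p = 0.00656, 0.616 times the TrspFF level). In Trsp-Ins1KO against TrspFF the difference was -0.20 (95% confidence interval -0.39 to -0.0072, adjusted p = 0.0828), not past the threshold, though it passed with normexp background correction (-0.44) and in a trended robust fit (0.0218). Trsp-Ins1KO was above Trsp-RIPKO by 0.50 (SE 0.076, adjusted p = 0.00797, 1.41-fold).

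That difference between the Cre lines held without any 1 array (highest adjusted p = 0.0427), whereas the fall in Trsp-RIPKO against TrspFF was lost without TrspFF replicate 1 (0.0508). The other probes of Bnip3 moved the same way. A_55_P2091472 was at 3.14 and 3.17 on TrspFF arrays, 2.53 and 2.53 on Trsp-RIPKO arrays and 3.02 and 2.83 on Trsp-Ins1KO arrays. The dim A_66_P120736 was at -2.53 and -2.59, -3.07 and -3.45, and -3.01 and -2.62 for these groups, and its Trsp-Ins1KO and Trsp-RIPKO arrays differed by 0.44 (adjusted p = 0.112 in the fit over all probes).

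Bnip3l encodes NIX, the close relative of Bnip3 that clears mitochondria from maturing red cells. Bnip3l measured 2.63 and 2.68 on TrspFF arrays, 2.50 and 2.59 on Trsp-RIPKO arrays, and 2.67 and 2.6 on Trsp-Ins1KO arrays. The groups Trsp-Ins1KO and TrspFF overlapped, and the Trsp-RIPKO arrays were the lowest by a narrow gap. The difference from TrspFF was -0.11 in Trsp-RIPKO (95% confidence interval -0.30 to 0.081, adjusted p = 0.293) and -0.016 in Trsp-Ins1KO (-0.20 to 0.17, adjusted p = 0.876). Under median scaling Bnip3l was called lower in Trsp-RIPKO (-0.35, adjusted p = 0.0239). The probes of Bnip3l did not move alike.

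A_55_P1961461 stayed at 2.52 to 2.59 on all 6 arrays. A_55_P2046943 was at 1.75 and 1.86 on TrspFF arrays, 1.78 and 1.83 on Trsp-RIPKO arrays and 1.52 and 1.44 on Trsp-Ins1KO arrays, a fall in Trsp-Ins1KO of 0.33 against TrspFF (adjusted p = 0.0245 in the fit over all probes) and of 0.33 against Trsp-RIPKO (0.0301). A_55_P2073699 was at 0.85 and 0.73, 0.77 and 0.72, and 0.58 and 0.48 for these groups, and fell by 0.27 in Trsp-Ins1KO against TrspFF (adjusted p = 0.048). The plot of probes sets these beside those of Bnip3 and Vegfa.

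**Figure D2:**
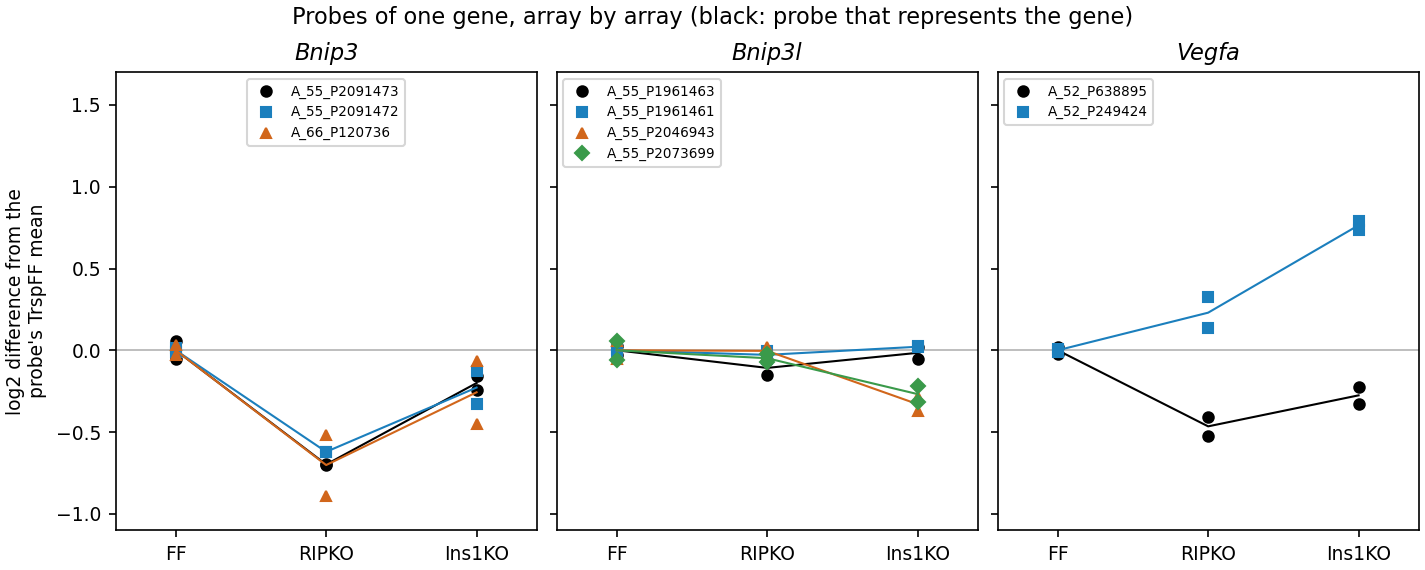
Difference of each array from the mean of the TrspFF arrays for every entering probe of Bnip3, Bnip3l and Vegfa (log2, y axis), with points for arrays and lines through group means. The Bnip3 probes run together with the lowest values in Trsp-RIPKO, 2 of the 4 Bnip3l probes lie lower in Trsp-Ins1KO, and the Vegfa probes part, one falling to -0.47 in Trsp-RIPKO and the other rising to 0.76 in Trsp-Ins1KO.

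Bnip3 and Slc2a1, the members that differed between the Cre lines, are shown with the 250 bases before their annotated start, from RefSeq on GRCm38.p6, written 5′ to 3′ along the gene. Bnip3 is chr7:138909507-138909756 on the minus strand and Slc2a1 is chr4:119108495-119108744 on the plus strand. Capitals mark ACGTG or GCGTG on either strand, so that CACGTG counts on both.
Bnip3: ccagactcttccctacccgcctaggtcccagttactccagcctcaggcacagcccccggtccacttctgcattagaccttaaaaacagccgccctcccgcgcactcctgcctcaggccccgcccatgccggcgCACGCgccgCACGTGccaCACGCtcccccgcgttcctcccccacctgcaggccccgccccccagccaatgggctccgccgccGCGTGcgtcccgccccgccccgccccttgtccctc
Slc2a1: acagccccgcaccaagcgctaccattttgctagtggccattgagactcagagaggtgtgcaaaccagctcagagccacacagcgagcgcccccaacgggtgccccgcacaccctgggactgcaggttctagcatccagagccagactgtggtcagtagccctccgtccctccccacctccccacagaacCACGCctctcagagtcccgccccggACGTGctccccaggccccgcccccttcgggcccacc
The Bnip3 window held 5 matches, beginning 117, 108, 99 and 35 bases before the start with the palindrome at 108 counted on both strands, and the Slc2a1 window held 2, at 61 and 36 bases before it. Of all 32851 RefSeq windows of this length, 38.6% held at least 1 match and 16.7% at least 2. Of the 10 genes, 9 had a window in that table, and each of the 9 had a match in at least 1 window, 10 of 12 windows in all. Bnip3l had none in the table. A match is a string of letters and not a bound site, and it separates neither the members that rose from those that fell nor those that differed between the lines.

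**Figure D3:**
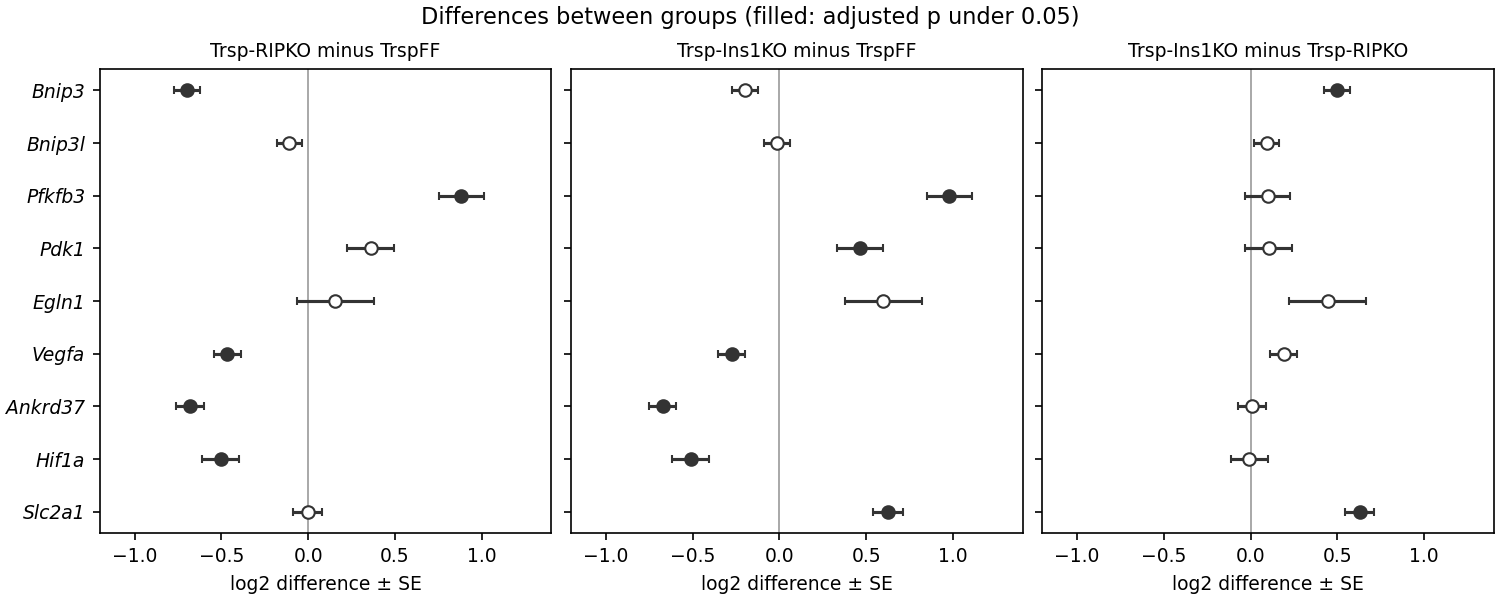
Log2 difference of each tested gene (x axis) in the 3 comparisons, with bars of 1 SE from the fit and filled points where the adjusted p is under 0.05. Vegfa is shown by its brighter probe. Ankrd37 and Hif1a lie left of 0 and Pfkfb3 right of it in both knockouts against TrspFF, Bnip3 lies furthest left in Trsp-RIPKO (-0.70), and Bnip3 (0.50) and Slc2a1 (0.63) are the filled points of Trsp-Ins1KO against Trsp-RIPKO.

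The paralogs of the members had calls of their own. Of the kinases that act on pyruvate dehydrogenase, Pdk3 fell by 1.17 in Trsp-RIPKO (adjusted p = 0.00676) and by 1.16 in Trsp-Ins1KO (0.00341). Pdk4, the kinase induced by fasting, fell by 1.23 in Trsp-Ins1KO (0.00215) and was at -0.095 in Trsp-RIPKO (0.502), a difference between the lines of -1.13 (0.00252). Pdk2 rose by 0.91 in Trsp-Ins1KO (0.00367), against 0.15 in Trsp-RIPKO (0.308), a difference between the lines of 0.76 (0.00621). Each of these calls of Pdk2, Pdk3 and Pdk4 held without any 1 array, and that of Pdk3 in Trsp-Ins1KO was lost with normexp background correction (-0.11, adjusted p = 0.186).

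Among the relatives of Pfkfb3, Pfkfb2 of the same bifunctional enzyme family fell by 0.39 in Trsp-RIPKO (adjusted p = 0.0197, lost whichever array of those groups was left out, highest 0.121) and by 0.53 in Trsp-Ins1KO (0.00588). Pfkfb1 rose by 0.43 in Trsp-Ins1KO (0.0389, kept only without TrspFF replicate 2, highest 0.13) and was at 0.085 in Trsp-RIPKO (0.612). Pfkfb4 was at -0.20 (0.083) and -0.19 (0.092). Among the glucose transporters, Slc2a2, which encodes GLUT2, the main transporter of mouse beta cells, fell by 0.59 in Trsp-RIPKO (0.00865, lost without TrspFF replicate 1 at 0.0649) and by 0.71 in Trsp-Ins1KO (0.00318). The Slc2a3 probe was well above background only in Trsp-RIPKO, where the fitted difference from TrspFF was 0.58 (95% confidence interval -0.38 to 1.54, adjusted p = 0.269).

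The counts in the lists and cell markers below are to be read beside the shares of all genes. Of all genes, 20.3% were called higher and 15.0% lower in Trsp-RIPKO against TrspFF. These shares were 23.3% and 22.6% in Trsp-Ins1KO against TrspFF, and 18.1% and 20.8% in Trsp-Ins1KO against Trsp-RIPKO. Of the HIF machinery outside the set, 6 of 7 listed genes were tested. In Trsp-RIPKO 1 rose and 0 fell by limma (median 0.11, with 0 lower at an unadjusted p under 0.05). Epas1, the HIF-2 alpha subunit prominent in endothelium, rose by 0.40 (adjusted p = 0.0381), a call lost whichever array of these groups was left out (highest 0.177), and 1 of its other probes was not called (0.21, 0.135 in the fit over all probes). In Trsp-Ins1KO 3 rose and 0 fell (median 0.45, again with 0 lower unadjusted). Epas1 rose by 0.99 (0.00318). Arnt, the shared partner subunit, rose by 0.58 (0.0101, lost without TrspFF replicate 1 at 0.0515). Egln2 rose by 0.32 (0.0191) by its brighter probe, a call lost without TrspFF replicate 1, TrspFF replicate 2 or Trsp-Ins1KO replicate 1 (highest 0.118), while its other probe was at -0.38 (0.0655). In Trsp-RIPKO Egln2 was at -0.040 (0.674), with -0.47 (0.0455) for the other probe. Under median scaling the Trsp-RIPKO count became 0 higher and 1 lower.

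In Trsp-Ins1KO against Trsp-RIPKO, 3 of these 6 genes were higher by limma and 0 lower (0 lower unadjusted). Epas1 was higher by 0.58 (adjusted p = 0.0128, lost without Trsp-RIPKO replicate 1 at 0.0648), Arnt by 0.38 (0.0388, lost whichever array of these groups was left out, highest 0.149, and not called by its other probe, 0.22) and Egln2 by 0.36 (0.0161, lost without either Trsp-RIPKO array, highest 0.0674, and with the mean over probes, 0.113, with 0.095 for the other probe). Of the list of mitophagy and autophagy genes, 19 of 20 others were tested. In Trsp-RIPKO 2 rose and 4 fell (median -0.0037), or 1 and 9 under median scaling. Sqstm1, the cargo receptor p62, rose by 0.60 (0.00846, lost without either TrspFF array, highest 0.063).

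The genes of this list that fell most in Trsp-RIPKO were Phb2, an inner-membrane prohibitin, by 0.67 (adjusted p = 0.0348), and 2 of the ubiquitin-like proteins of the autophagosome membrane, Map1lc3a by 0.59 (0.0144) and Gabarapl2 by 0.52 (0.0234). All of these falls were lost without either TrspFF array or Trsp-RIPKO replicate 2, and that of Gabarapl2 also without Trsp-RIPKO replicate 1 (highest 0.147, 0.0871 and 0.119). In Trsp-Ins1KO 8 of 19 rose and 3 fell (median 0.089). The receptor Optn rose by 0.97 (0.00314), Sqstm1 by 0.95 (0.00192) and the damage-sensing kinase Pink1 by 0.65 (0.00417), and Fundc1, the other hypoxia-linked receptor of the outer membrane, fell by 0.60 (0.00425). These 4 calls held without any 1 array. Map1lc3a (-0.46, limma adjusted p = 0.0187) and Gabarapl2 (-0.41, 0.0348) were also called lower in Trsp-Ins1KO, and Phb2 was not called (-0.38, 0.123). Optn (0.48, 0.0246) and Fundc1 (-0.42, 0.0157) were also called in Trsp-RIPKO against TrspFF, and Pink1 was not (-0.0037, 0.976).

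Between the lines, 6 of the 19 genes were higher in Trsp-Ins1KO than in Trsp-RIPKO by limma and 0 lower (7 and 0 at an unadjusted p under 0.05). Pink1 was higher by 0.66 (adjusted p = 0.00469, held without any 1 array), Optn by 0.49 (0.0188, lost without Trsp-RIPKO replicate 1 or Trsp-Ins1KO replicate 2), Gabarapl1 by 0.40 (0.0172, lost without Trsp-RIPKO replicate 2 or Trsp-Ins1KO replicate 1) and Sqstm1 by 0.36 (0.0198, lost without either TrspFF array, Trsp-RIPKO replicate 1 or Trsp-Ins1KO replicate 2). The highest adjusted p of the lost calls was 0.0784, 0.0732 and 0.082. Bnip3 and the receptors Optn and Sqstm1 thus stood higher in Trsp-Ins1KO than in Trsp-RIPKO, whereas against TrspFF the values were -0.20 for Bnip3 and 0.97 and 0.95 for Optn and Sqstm1.

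Of the glucose uptake, glycolysis and pyruvate list, 28 of 29 others were tested. In Trsp-RIPKO 1 rose and 10 fell (median -0.19). The monocarboxylate transporter Slc16a1 rose by 0.84 (adjusted p = 0.00737, held without any 1 array). The liver-type phosphofructokinase Pfkl fell by 0.67 (0.0208, lost without either TrspFF array or Trsp-RIPKO replicate 2, highest 0.111), besides Pdk3 and Slc2a2 described above. In Trsp-Ins1KO 8 rose and 9 fell (median -0.15, or 0.012 with normexp background correction), and the platelet-type phosphofructokinase Pfkp rose by 0.85 (0.0082, lost without TrspFF replicate 1 at 0.0533). Slc16a1 rose in Trsp-Ins1KO too, by 0.69 (limma adjusted p = 0.00563), and was not called between the lines (-0.14, 0.285). Between the lines 9 were higher in Trsp-Ins1KO and 3 lower. Aldoa, the aldolase of muscle, was higher by 0.65 (0.00407, held without any 1 array) and Eno2, the neuronal enolase, by 0.57 (0.0125, lost without either Trsp-RIPKO array, highest 0.0623). Both were lost with normexp background correction (0.17, adjusted p = 0.0662, and 0.062, adjusted p = 0.547).

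Of the angiogenic ligands and receptors, 11 of 12 others were tested. In Trsp-RIPKO 4 rose and 1 fell (median 0.18, or -0.065 with median scaling and -0.063 with quantile normalization). Flt1, which encodes VEGF receptor 1, rose by 0.63 (adjusted p = 0.00579, lost without TrspFF replicate 1 at 0.0508), and Vegfb, a ligand of Flt1, fell by 0.81 (0.00719, held without any 1 array). Angptl4, a secreted lipase inhibitor and HIF target, rose by 0.75 (0.0107, lost without TrspFF replicate 2 or Trsp-RIPKO replicate 2, highest 0.059). Angpt1, the ligand of the endothelial receptor Tek, was well above background only in Trsp-RIPKO, at least 1.5-fold above TrspFF. Angpt1 is among the 4 that rose but entered only through that group, so the filter favoured its direction. Its call (adjusted p = 0.0431) was lost without any 1 knockout array. It was also lost with quantile normalization (0.1) and with no filter on dim probes (0.104), among other settings.

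In Trsp-Ins1KO 3 of these 11 rose and 2 fell (median 0.091). Flt1 rose by 1.5 (adjusted p = 0.00053) and Kdr, VEGF receptor 2, by 0.46 (0.015, lost without either TrspFF array, highest 0.086), with 1.64 for its other probe (0.000603 in the fit over all probes). Angptl4 fell by 1.49 (0.00166) and Vegfc, a lymphatic growth factor, by 0.73 (0.00406), and the calls of Flt1, Angptl4 and Vegfc held without any 1 array. Kdr was also called higher in Trsp-RIPKO against TrspFF (0.39, limma adjusted p = 0.0315). Against Trsp-RIPKO, 3 were higher in Trsp-Ins1KO and 3 lower. Angptl4 was lower, at -2.23 (0.000682), as was Vegfc, at -0.72 (0.00479), and Flt1 was higher by 0.86 (0.0016), all held without any 1 array. Angpt1, which entered only through Trsp-RIPKO, was lower (0.0109, lost without either Trsp-RIPKO array), with no fold since it was near background.

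Flt1 and Kdr are also markers of endothelium, and markers of other cells moved with the groups. The summed level of 9 endothelial markers, in units of the 75th percentile, was 42.9 to 43.9 in TrspFF, 56.9 to 57.5 in Trsp-RIPKO and 80.0 to 84.3 in Trsp-Ins1KO, with 5 of 9 called higher in Trsp-RIPKO and 6 of 9 in Trsp-Ins1KO against TrspFF. Kdr and Flt1 themselves gave most of that sum. Of the other endothelial markers, Plvap (1.79), Cdh5 (1.71), Eng (1.4) and Esam (1.16) rose in Trsp-Ins1KO, while Pecam1 (0.077), Emcn (0.064) and Tek (0.043) were not called there. The sum of 10 acinar markers was 7.36 to 7.72, 19.2 to 21.5 and 17.5 to 18.2 in the same order, 10 of 10 higher in both. Fibroblast and stellate markers (6 tested of 7, Pdgfra above background nowhere) summed to 12.2 to 12.6, 18.9 to 19.1 and 4.61 to 4.83. Against TrspFF 5 were called higher and 0 lower in Trsp-RIPKO. In Trsp-Ins1KO 5 were called lower and 1 higher, Pdgfrb (0.76, limma adjusted p = 0.0213).

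Macrophage markers (6 of 7, Cd68 above background nowhere) summed to 137 to 139, 191 to 203 and 250 to 270, of which Itgam gave most. Against TrspFF 2 of the 6 were called higher in Trsp-RIPKO and 3 in Trsp-Ins1KO, with 0 lower. Adgre1, Lyz2 and C1qa were called in neither. Erythrocyte markers (4 of 5, Hbb-b1 above background nowhere) summed to 21.6 to 22.5, 13.4 to 14.2 and 12.8 to 14.8. Most of that sum came from Hba-a1 and Hbb-bt, both called lower in each knockout against TrspFF. Alas2 and Slc4a1 were called in neither. The sum of 10 beta-cell markers was 3170 to 3550, 3590 to 3830 and 5740 to 6300, most of it from Ins1, Ins2 and Iapp. Against TrspFF 0 of the 10 were called higher in Trsp-RIPKO and 4 lower (Ucn3 -1.19, Slc2a2 -0.59, Nkx6-1 -0.54 and Slc30a8 -0.40), and 6 higher and 2 lower in Trsp-Ins1KO. The sum of 7 alpha, delta and PP markers was 1500 to 1520, 1040 to 1100 and 1000 to 1080. Small intestine markers (4 tested of 11, with Cdx1, Cdx2, Muc2, Defa24, Lgr5, Olfm4 and Apoa4 above background nowhere) summed to 5.92 to 6.21, 10 to 10.2 and 7.74 to 8.14, with most from Vil1. Against TrspFF, Vil1 itself was not called in Trsp-RIPKO (0.15, limma adjusted p = 0.148) and was called higher in Trsp-Ins1KO (0.28, 0.028). Defa17, not well above background in TrspFF, was at least 45.9-fold higher in Trsp-RIPKO, Fabp1 at least 13-fold and Fabp2 at least 11.1-fold, and Fabp1 was at least 11.3-fold higher in Trsp-Ins1KO. Defa17 and Fabp2 entered only through Trsp-RIPKO, so the filter favoured their direction and that of the sum. Slc2a1 and Epas1 were highest in the group with the highest endothelial sum, which also had the highest beta-cell and macrophage sums. Bnip3 was lowest in the group with the highest fibroblast sum, which also had the highest acinar and small intestine sums. Cell types whose sums peak in the same group cannot be told apart for these genes. The part of these cells in the results was not tested.

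Of the other known hypoxia targets, 31 of 36 were tested. In Trsp-RIPKO 6 rose and 6 fell (median -0.0059), beside 20.3% and 15.0% of all genes. Under median scaling 3 rose and 13 fell (median -0.25). Hmox1, the haem oxygenase that is a target of NRF2 as well as of HIF, rose by 1.71 (adjusted p = 0.00259, held without any 1 array), though its other probe was at 0.12 (0.711 in the fit over all probes). Ppp1r3c, a glycogen-targeting phosphatase subunit, fell by 0.80 (0.00584), a call that held without any 1 array and was lost with normexp background correction (-0.13, 0.141). Stc2, a secreted glycoprotein also induced by endoplasmic reticulum stress, rose by 0.62 (0.0383). The mitochondrial adenylate kinase Ak4 was well above background only in Trsp-RIPKO, at least 1.82-fold above TrspFF. Ak4 is among the 6 that rose but entered only through that group, so the filter favoured its direction. Its call (0.0276) was lost with quantile normalization (0.066) and with no filter on dim probes (0.074). The calls of Stc2 and Ak4 were lost whichever TrspFF or Trsp-RIPKO array was left out (highest 0.158 and 0.125).

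In Trsp-Ins1KO 12 of these 31 rose and 5 fell (median 0.30), beside 23.3% and 22.6% of all genes. Hmox1 rose by 2.54 (adjusted p = 0.000521), again by 1 probe of 2, with the other at 0.14 (0.638). The call of Hmox1 held without any 1 array. Stc2 was called higher in Trsp-Ins1KO too (0.69, limma adjusted p = 0.0228), and was not called between the lines (0.065, 0.775). The transcription factor gene Bhlhe40 rose by 0.99 (0.00952, lost without TrspFF replicate 1 at 0.0575). Plod2, a collagen lysyl hydroxylase, was not well above background in Trsp-Ins1KO and lay at least 1.36-fold lower than in TrspFF (0.0282, lost whichever TrspFF or Trsp-RIPKO array was left out, highest 0.107).

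Between the lines 14 of the 31 were higher in Trsp-Ins1KO than in Trsp-RIPKO and 3 lower, beside 18.1% and 20.8% of all genes. Ndufa4l2, a HIF target that lowers complex I activity, was higher by 0.89 (adjusted p = 0.00183) and Hmox1 by 0.83 (0.00519, with 0.024 for its other probe). Plod2 was lower, at least 2.35-fold (0.00852). These 3 calls held without any 1 array, but with normexp background correction the fitted difference of Plod2 was 0.041 here and 0.34 against TrspFF. Both directions thus occurred among known hypoxia targets in every comparison, as among the 9 members in each knockout against TrspFF, and the plot of pathway genes shows their spread.

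**Figure D4:**
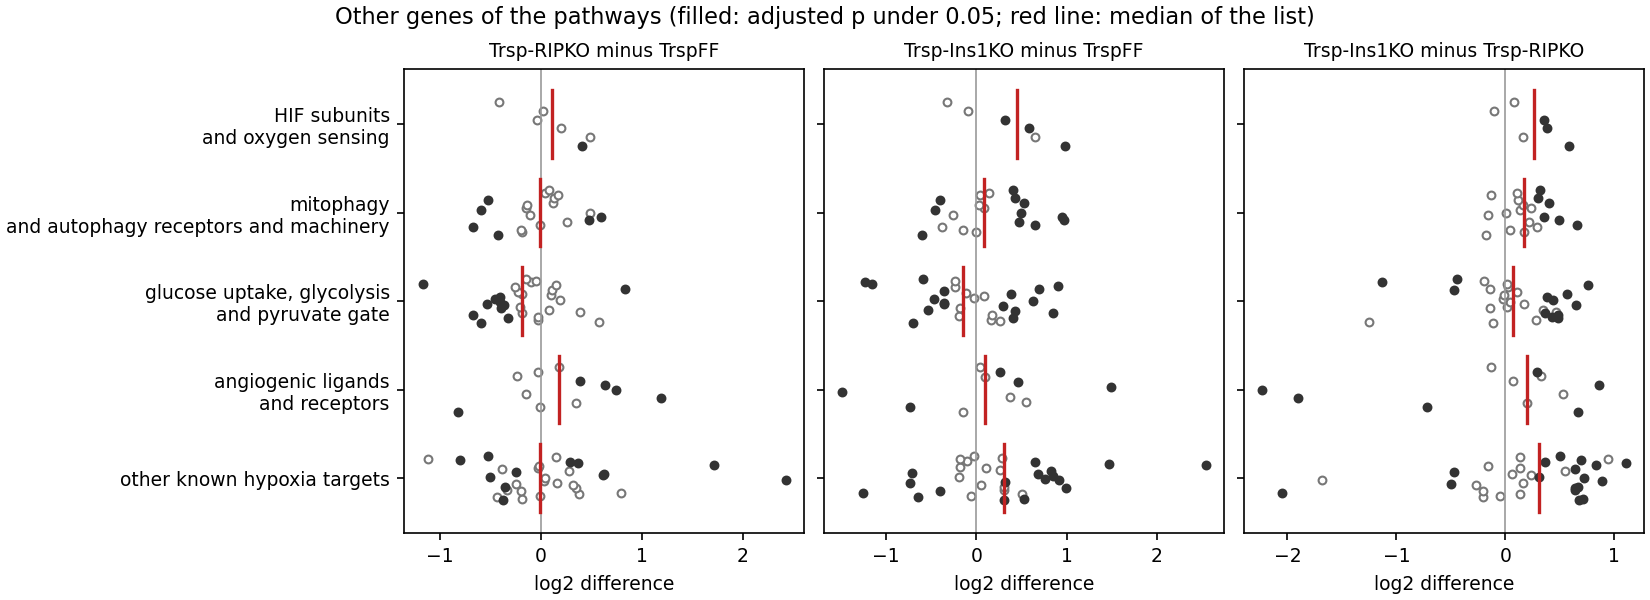
Log2 difference (x axis) of the other tested genes of 5 pathway lists, without the 10 genes, in the 3 comparisons; each point is a gene, filled where the adjusted p is under 0.05, red lines are medians of the lists, and genes well above background in neither group are not drawn. Points lie on both sides of 0 in each list, and in Trsp-Ins1KO against TrspFF the other hypoxia targets have 12 filled points to the right and 5 to the left.

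Genes with the pattern most like a member's over the 6 arrays were ranked by the root mean square difference after each gene was centred, among 11667 genes above background everywhere. For Bnip3 these were Tmem30b (0.0542), Spint1 (0.0542) and Rex1bd (0.0565), and for Slc2a1 they were Atf4 (0.0303), the stress-response transcription factor, Sdhc (0.0379) and Sbf1 (0.0383). For Ankrd37 they were Ccdc51 (0.031), Trappc2l (0.0374) and Zxdb (0.0438), for Pfkfb3 Fzd4 (0.0619), Rtn1 (0.0805) and Wfdc1 (0.0859), and for Pdk1 Poc1a (0.038), Dagla (0.0558) and Gypc (0.0615). For Hif1a they were Pax6os1 (0.0387), H4c4 (0.0425) and Snhg1 (0.043), and for the brighter Vegfa probe Alkbh7 (0.0269) and Ywhaq (0.0328). With 6 arrays in 3 groups such likeness is a description only.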

How the data were processed

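Per the file headers, the authors read the arrays with Agilent Feature Extraction 10.7.3.1, and the deposited processed intensity of each spot is background-subtracted and not scaled between arrays. The authors also deposited log2 values per probe, whose scale, centring and direction are not stated, with column medians from -0.0795 to 0.141 and 4 columns that go against the scanner files over 19485 probes (r = 1 with the other group's file, -0.441 and -0.658 with their own). These values served as an alternative.

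From the scanner files, log2 intensity minus each array's 75th percentile was computed, control and outlier spots were left out, and spots of a probe were averaged. RefSeq accessions named 26053 of 39429 probes (66.1%) through a GRCm38.p6 table used for names and promoters. A probe entered if every array of 1 or more groups read it well above background, and the brightest entering probe represented its gene (23197 probes, 19020 genes, 13369 with a symbol). The fit was made with limma 3.58.1 (R 4.3.3) on all 6 arrays, two-sided, with Benjamini-Hochberg adjusted p-values. A fold written "at least" sets the brighter group against the lowest signal well above background, or the probe's own if higher. The script was tested on simulated data. Array number limits the precision.

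The members and pathway lists were chosen with earlier results of these data known. All 10 members are named, and, from each list and comparison, the 4 called genes of largest difference that were above background on all arrays of a group, the members' paralogs, and the 3 genes most alike to each called member. Some genes that this rule picks are not reported here. Fits over single probes were added after seeing the data. Promoters were searched with Python 3.11.15.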

Additional observations from a re-analysis of the deposited data

Results flagged for a closer look

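Bnip3 differed between the Cre lines by 0.498 on the log2 scale (Trsp-Ins1KO minus Trsp-RIPKO, limma adjusted p = 0.00797, with both Trsp-Ins1KO arrays above both Trsp-RIPKO arrays). Slc2a1 differed between the Cre lines in the same test by 0.6271 (adjusted p = 0.00612, again with no overlap of the arrays). By the column names in the authors' deposited table the difference of Slc2a1 between the lines was 0.031 (adjusted p = 0.799). Whether Trsp was deleted alike in both lines was not checked. The Trsp-RIPKO arrays lay alone on slide 2, and Xist was well above background there and not in Trsp-Ins1KO. For both genes, slide and sex therefore cannot be told apart from the Cre line.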

How the results depend on the processing

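Choices tried were quantile normalization, median scaling, normexp background correction, no filter on dim probes, a filter asking for signal above background everywhere, a mean over each gene's probes, a trended robust fit, only the groups compared, the replicate number as a block, each array left out and the authors' table. The slide as a block was not run, since slide 2 holds only Trsp-RIPKO; TrspFF and Trsp-Ins1KO share slide 1, so the fit of only those groups lies within a slide. Sign changes were counted where either fit passed the threshold, and the cause was not tested.

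The replicate number did not pair the samples (correlations of deviations 0.0933, 0.0793 and 0.0644 over 19020 genes). With the replicate block 6456, 8509 and 7005 genes were called, in the order Trsp-RIPKO against TrspFF, Trsp-Ins1KO against TrspFF and Trsp-Ins1KO against Trsp-RIPKO. In Trsp-Ins1KO against TrspFF, Pdk1 (adjusted p = 0.0615) and Vegfa (0.0639) were then no longer called, and Egln1 was (0.0152, and 0.034 against Trsp-RIPKO).

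Leaving out an array gave 970 to 7491, 3770 to 8243 and 4136 to 6505 genes called in the same order, and 0 to 5, 3 to 5 and 2 to 2 members. Without the filter on dim probes 2720, 13928 and 11251 genes were called, and 3 members in Trsp-RIPKO against TrspFF. With normexp 14024 genes were called in Trsp-Ins1KO against TrspFF and 11904 against Trsp-RIPKO, with 7 members in the latter. By the authors' own column names 2 members were called in Trsp-RIPKO against TrspFF and 5 between the lines.

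Median scaling moved the median of all genes to -0.22 in Trsp-RIPKO and -0.078 in Trsp-Ins1KO against TrspFF, and to 0.15 between the lines. It turned the share of calls that were higher from 57.5% to 23.2% in Trsp-RIPKO and from 46.4% to 69.4% between the lines. Quantile normalization gave 47.5% in Trsp-RIPKO. Normexp turned 50.8% to 66.5% in Trsp-Ins1KO and gave 67.1% between the lines. Under median scaling Bnip3l was called in Trsp-RIPKO at -0.35 (adjusted p = 0.0239), and Vegfa between the lines at 0.37 (0.029).

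Other changes of sign were few. With normexp they were Hif1a (0.0026), Plod2 (0.34) and Slc2a3 (0.53) in Trsp-Ins1KO against TrspFF, and Bnip3l (-0.19), Angpt1 (0.23) and Plod2 (0.041) between the lines. With the mean over probes they were Vegfa (0.24) and Egln2 (-0.031) in Trsp-Ins1KO against TrspFF. The other Vegfa probe gave 0.23 in Trsp-RIPKO and 0.76 in Trsp-Ins1KO, and a Bnip3l probe gave -0.33 between the lines.

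By the authors' own column names 50 differences changed sign. In Trsp-RIPKO against TrspFF they became Pfkfb3 -0.12, Epas1 -0.60, Flt1 -0.88, Hmox1 -0.85, Pdk2 -0.78, Pdk4 1.11, Pfkfb2 0.12, Slc2a2 0.10, Sqstm1 -0.38 and Stc2 -0.088. In Trsp-Ins1KO against TrspFF they became Pfkfb3 -0.97, Pdk1 -0.46, Vegfa 0.28, Ankrd37 0.68, Hif1a 0.52, Slc2a1 -0.62, Angptl4 1.49, Arnt -0.58, Bhlhe40 -0.98, Egln2 -0.31, Epas1 -0.98, Flt1 -1.49, Fundc1 0.61, Hmox1 -2.54, Kdr -0.46, Optn -0.97, Pdk2 -0.90, Pdk3 1.16, Pdk4 1.23, Pfkfb1 -0.43, Pfkfb2 0.54, Pfkp -0.84, Pink1 -0.65, Plod2 1.27, Slc2a2 0.71, Sqstm1 -0.95 and Vegfc 0.73. Between the lines they became Pfkfb3 -0.85, Hif1a 0.53, Arnt -0.17, Epas1 -0.38, Flt1 -0.61, Gabarapl1 -0.10, Hmox1 -1.69, Ndufa4l2 -0.0034, Optn -0.45, Pdk2 -0.12, Pdk4 0.12, Sqstm1 -0.57 and Vegfc 0.037.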
